A study of Homo sapiens with 12 samples.

Results

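Iron uptake, storage and release, heme breakdown and iron sensing were followed through the transcripts of 7 genes, TFRC, FTH1, FTL, NCOA4, HMOX1, IREB2 and ACO1, in HL60 cells. They were chosen by name for their function and matched by symbol to the table of raw counts, which holds 59251 genes, and all 7 were present. All 7 also passed the expression filter that left 13318 genes for testing. HL60 (HL-60 in the labels) is a single cell line of human acute myeloid leukemia that lacks the PML-RARA fusion. The RNA-Seq experiment held 12 libraries, with 3 labelled as biological replicates in each of 4 groups, all grown in RPMI1640 with fetal bovine serum. One group was non-treated. Another received 1 µM all-trans retinoic acid (ATRA), which drives myeloid differentiation, and another received 1 µM palbociclib, an inhibitor of the cell cycle kinases CDK4 and CDK6 (CDK4/6i). The last group received both drugs at these doses (CDK4/6i+ATRA), and all treatments lasted 48 h.

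Most cells import iron bound to transferrin, which binds the transferrin receptor encoded by TFRC, and the iron is released in endosomes. Iron that is not used is stored inside ferritin, a hollow shell built from heavy (FTH1) and light (FTL) subunits, and NCOA4 carries ferritin to lysosomes, where the iron is freed. HMOX1, heme oxygenase 1, opens the heme ring and so returns its iron. The iron regulatory proteins, encoded by ACO1 and IREB2, sense iron and bind a hairpin called the iron-responsive element. Bound to elements near the 3′ end of the TFRC mRNA they protect it from decay, and bound to the element at the 5′ end of a ferritin mRNA they block its translation. Counts of RNA therefore show ferritin transcripts but not this block of translation, and neither iron nor protein was measured in these libraries.

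Matches to this element are shown because it is the sequence by which TFRC and ferritin mRNAs are tied to the same sensor. The exons listed in the deposited table were read from hg38 in the sense direction and searched for an unpaired C, a stem of 5 base pairs (G-U pairs allowed) and the loop CAGTGN. TFRC held 4 matches, FTL held 1, and IREB2, ACO1 and NCOA4 held 0, which says only that this pattern is not in their listed exons. An element with another loop or stem would be missed, so the matches in TFRC and FTL need not be all of their elements. Among 12590 tested genes on the primary chromosomes, 268 (2.13%) held at least 1 match and 3 (0.0238%) held at least 4. The TFRC matches lie on the minus strand in the 3′ part of the exons, at chr3:196050980-196051006 (element 1), chr3:196050576-196050602 (element 2), chr3:196050511-196050537 (element 3) and chr3:196050464-196050490 (element 4). The FTL match lies on the plus strand at chr19:48965336-48965362, with its loop starting at base 39 of the listed exons. FTH1 and HMOX1 were not searched. Capitals mark the loop, each element is 27 bases long, and all are written 5′ to 3′:
TFRC element 1: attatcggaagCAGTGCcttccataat
TFRC element 2: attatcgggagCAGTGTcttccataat
TFRC element 3: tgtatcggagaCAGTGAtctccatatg
TFRC element 4: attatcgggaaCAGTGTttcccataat
FTL element: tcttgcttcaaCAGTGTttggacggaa

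Total counts per library ranged from 12230923 to 18679544, with the lowest totals in the CDK4/6i+ATRA group. Levels are given as CPM, each count scaled to a common library total after TMM, a scaling that sets most genes level between libraries, and 3 counts corresponded to 0.161 to 0.245 CPM by library size alone. Changes are log2 fold changes with standard errors from edgeR's quasi-likelihood test on all 12 libraries, and a gene was called at a Benjamini-Hochberg adjusted p under 0.05. Under library size alone the median change of all genes between CDK4/6i+ATRA-treated and non-treated cells moved from 0.02 to -0.25 on the log2 scale, and the share of called genes that were higher moved from 50.2% to 40.5%. The same change of scaling moved the median of all genes from 0.0014 to -0.28 against CDK4/6i, from 0.04 to -0.26 against ATRA and from -0.02 to -0.34 for the interaction of the drugs, and the share of called genes that were higher from 49.8% to 36.7%, from 52.95% to 31.6% and from 47.5% to 18.5%. MPO, a defining gene of myeloid blasts, was at 6335 to 6666 CPM in non-treated cells, whereas ELANE, AZU1 and PRTN3 were at 0 in every library and are each listed on more than 1 contig of the genome. Of 14 erythroid markers, 9 were at 0 in every library, hemoglobin genes among them, and the summed list reached at most 15.3 CPM. Of 10 lymphoid markers, 2 were at 0, and the list summed to at most 31.8 CPM.

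TFRC fell in every treated group, by far the most with both drugs. The TFRC gene spans chr3:196049284-196082090 on the minus strand, with 19 exons after overlaps are merged. Its level was 1862, 1811 and 1687 CPM in the 3 non-treated libraries and 1542, 1521 and 1506 CPM in the CDK4/6i libraries. It was 419.8, 471.4 and 484.9 CPM in the ATRA libraries and 140.1, 150.5 and 144.1 CPM in the CDK4/6i+ATRA libraries. The order of the group means was thus non-treated, CDK4/6i, ATRA and CDK4/6i+ATRA, and no library of any group overlapped another group. In bulk RNA, fewer cells with the transcript and less transcript per cell cannot be told apart.

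Against non-treated cells TFRC was 3.89-fold lower with ATRA (log2 fold change -1.96, SE 0.0462, adjusted p = 4.7e-37) and 1.17-fold lower with CDK4/6i (-0.23, SE 0.0441, adjusted p = 1.4e-05). With both drugs it was 12.3-fold lower (-3.62, SE 0.0514, adjusted p = 3.8e-47), an absolute log2 change larger than that of 91.9% of all genes tested. ATRA added to CDK4/6i lowered the log2 level by a further -3.39 (adjusted p = 7.3e-46), and CDK4/6i added to ATRA changed it by -1.66 (adjusted p = 8.4e-33). The interaction, which is the log2 change with both drugs minus the sum of the log2 changes with each drug alone, was -1.43 (SE 0.0663, adjusted p = 4.9e-24). CDK4/6i therefore lowered TFRC more in the presence of ATRA than in its absence, 3.17-fold against 1.17-fold.

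**Figure D1:**
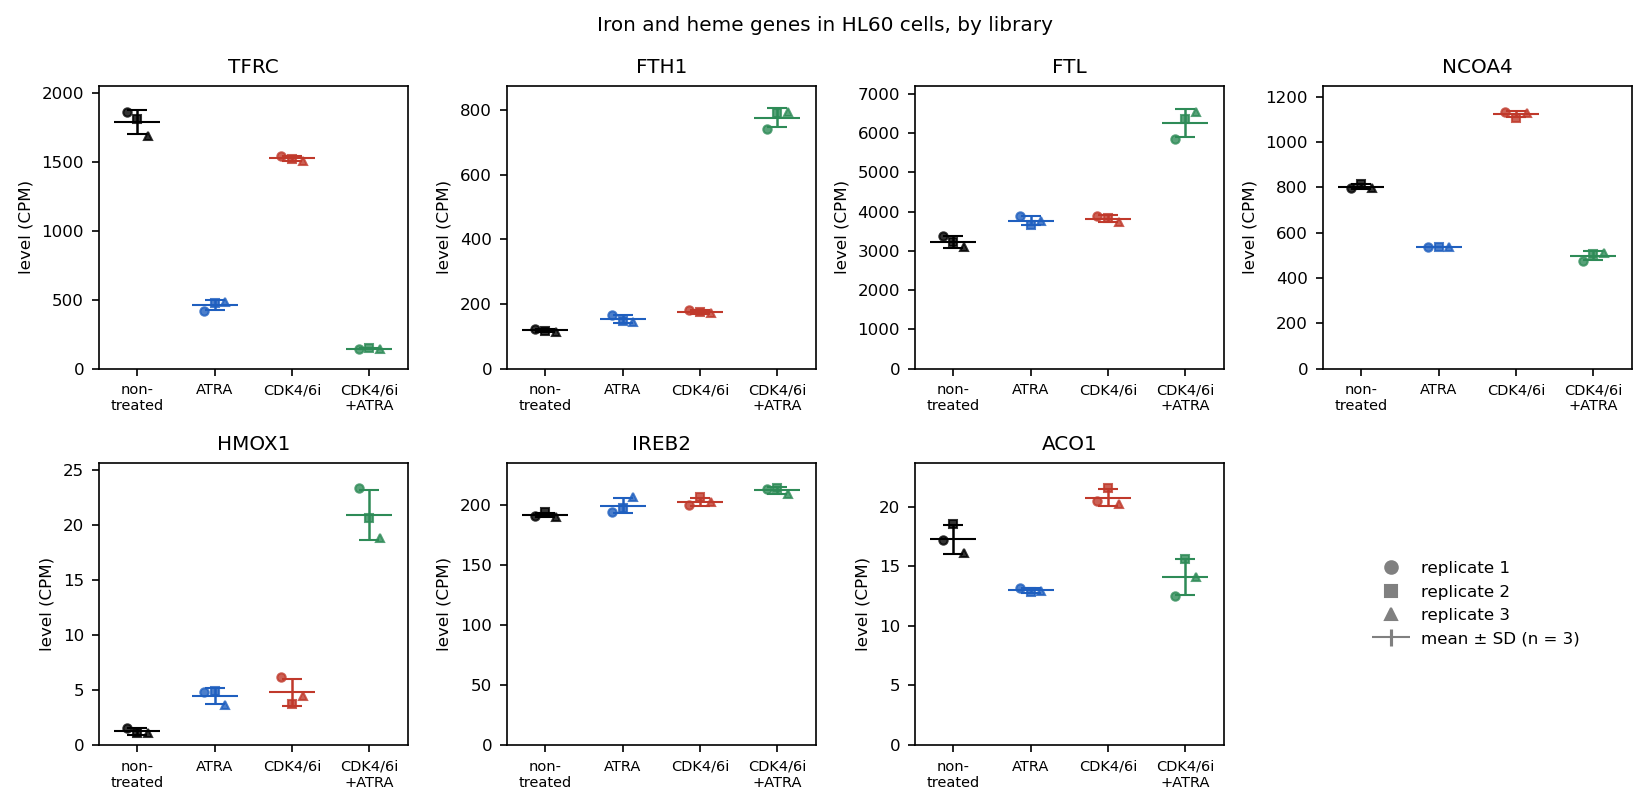
Level in CPM (vertical axes, each from 0) of the 7 genes in the 4 groups (horizontal axes). Points are single libraries with a marker for each replicate number, and bars are the mean ± SD of 3 libraries. TFRC falls from 1787 to 144.9 CPM with both drugs, whereas FTH1 rises from 117.8 to 775.6 CPM and HMOX1 from 1.23 to 20.96 CPM, and IREB2 stays between 189.7 and 213.6 CPM.

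Markers of proliferation and maturation also differed between the groups. The summed level of 16 proliferation markers was 5723 to 5876 CPM in non-treated cells, 5675 to 5865 CPM under ATRA, 934.7 to 982.2 CPM with CDK4/6i and 181.8 to 190.1 CPM with both drugs. All 16 were called lower with CDK4/6i and with both drugs, whereas with ATRA 5 were higher and 8 lower, where 56.2%, 81.7% and 67.6% of all genes tested were called in either direction. TFRC and the proliferation sum thus differed in order, since TFRC was lower with ATRA than with CDK4/6i and the sum was the reverse. The summed level of 13 granulocyte and monocyte maturation markers was 256.9 to 273.2 CPM in non-treated cells, 4762 to 4888 CPM under ATRA, 725.3 to 754.7 CPM with CDK4/6i and 6558 to 6784 CPM with both drugs. Only 9 of these 13 passed the expression filter. LTF, LCN2 and CD163 had at most 3 counts in any library and 0 in each CDK4/6i+ATRA library, so the sum does not speak for them. ITGAM, the integrin subunit CD11b, was at 8.17 to 9.97 CPM in non-treated cells and 578.0 to 604.2 CPM with both drugs, while MPO ended at 24.5 to 33.9 CPM. The part of either marker list in the change of TFRC was not tested.

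**Figure D2:**
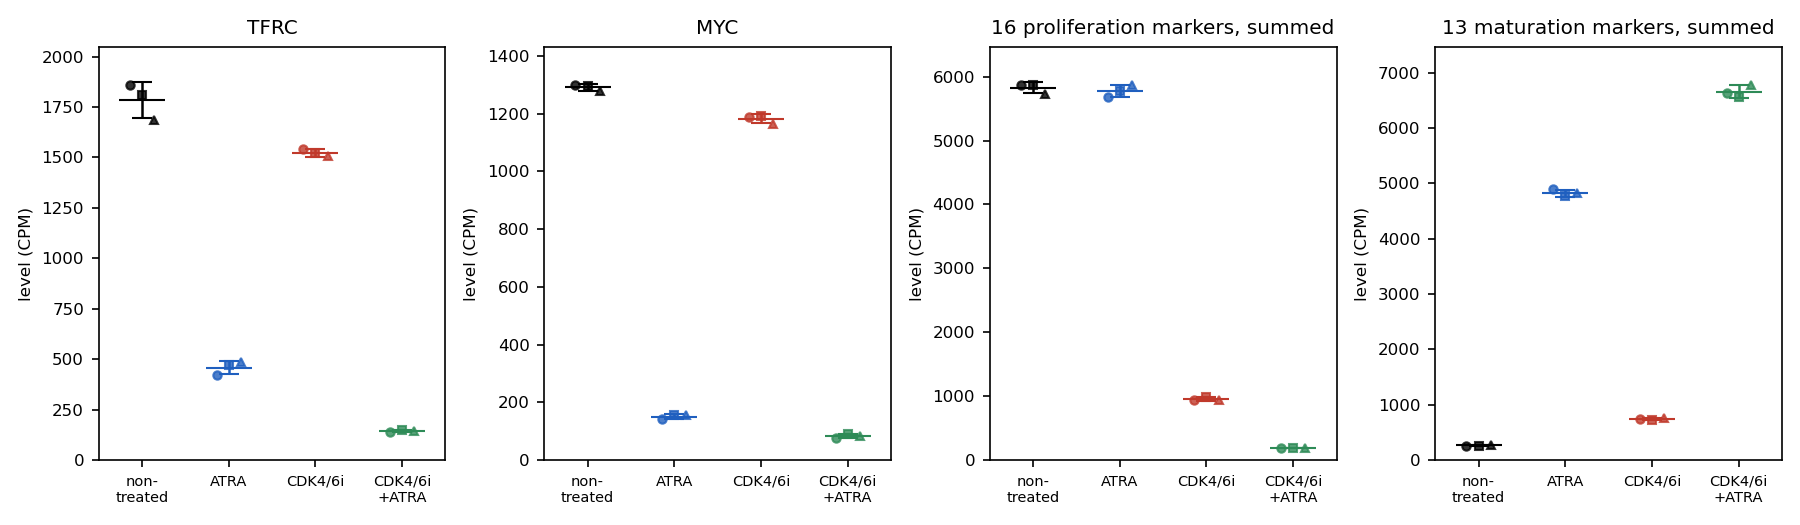
Level in CPM of TFRC, of MYC and of the summed proliferation and maturation markers (vertical axes, each from 0) in the 4 groups, with points for single libraries and bars for the mean ± SD of 3 libraries. TFRC and MYC share the order non-treated, CDK4/6i, ATRA and CDK4/6i+ATRA, whereas the proliferation sum is 5675 to 5865 CPM under ATRA and 934.7 to 982.2 CPM with CDK4/6i.

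Both ferritin subunit transcripts rose with either drug, and the heavy subunit rose the most with both drugs together. FTH1 spans chr11:61964285-61967634 on the minus strand with 4 exons. Its level was 123.6, 117.3 and 112.5 CPM in non-treated cells, 167.1, 148.3 and 145.5 CPM under ATRA, 182.6, 173.6 and 170.7 CPM with CDK4/6i and 742.0, 789.9 and 795.0 CPM with both drugs. The groups did not overlap, although the ATRA and CDK4/6i libraries came within a few CPM of each other. Against non-treated cells the log2 change was 0.38 with ATRA (SE 0.0460, adjusted p = 3.2e-10), 0.58 with CDK4/6i (SE 0.0456, adjusted p = 1.3e-15) and 2.72 with both drugs (SE 0.0447, adjusted p = 1.9e-44), a 6.59-fold rise. The FTH1 interaction was 1.76 on the log2 scale (SE 0.0626, adjusted p = 1.8e-28), which means 3.39 times the level that the product of the single-drug folds would give.

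FTL spans chr19:48965309-48966879 on the plus strand with 4 exons, and it was the most abundant of the 7 transcripts per kilobase in every group. Its level was 3383, 3220 and 3088 CPM in non-treated cells, 3893, 3666 and 3746 CPM under ATRA, 3885, 3843 and 3722 CPM with CDK4/6i and 5853, 6358 and 6545 CPM with both drugs. The ATRA and CDK4/6i libraries overlapped, and both groups lay above the non-treated and below the CDK4/6i+ATRA libraries. The log2 change was 0.22 with ATRA (SE 0.0470, adjusted p = 4.6e-05), 0.24 with CDK4/6i (SE 0.0470, adjusted p = 1.9e-05) and 0.95 with both drugs (SE 0.0473, adjusted p = 5.5e-24), a 1.94-fold rise. The FTL interaction was 0.49 on the log2 scale (SE 0.0664, adjusted p = 1.5e-08) and fell to 0.17 under library size alone (adjusted p = 0.0014). Under that scaling the log2 change of FTL with both drugs was 0.43 against CDK4/6i and 0.42 against ATRA, in place of 0.71 and 0.73.

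The ratio of the subunits within a library does not depend on depth or on TMM, and it shifted toward the heavy subunit. For each FTH1 count there were 27.4, 27.5 and 27.5 FTL counts in the non-treated libraries, 23.3, 24.7 and 25.7 under ATRA, 21.3, 22.1 and 21.8 with CDK4/6i and 7.89, 8.05 and 8.23 with both drugs. The groups did not overlap in any of the 5 comparisons made. The log2 ratio of FTH1 to FTL was -4.78 ± 0.0029 (SD, n = 3) in non-treated cells, -4.62 ± 0.0723 under ATRA, -4.44 ± 0.0289 with CDK4/6i and -3.01 ± 0.0308 with both drugs. It rose 3.40-fold with both drugs against non-treated cells, 2.698-fold against CDK4/6i and 3.05-fold against ATRA, compared with 1.12-fold for ATRA and 1.26-fold for CDK4/6i against non-treated cells. An exact two-sided permutation test gave p = 0.1 for each, also after adjustment over the 5, which is the smallest p that 3 against 3 libraries allow. Together the subunits took 0.347% ± 0.0119 (SD, n = 3) of all counts in non-treated cells, 0.418% ± 0.0128 under ATRA, 0.417% ± 0.0064 with CDK4/6i and 0.605% ± 0.0150 with both drugs.

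**Figure D3:**
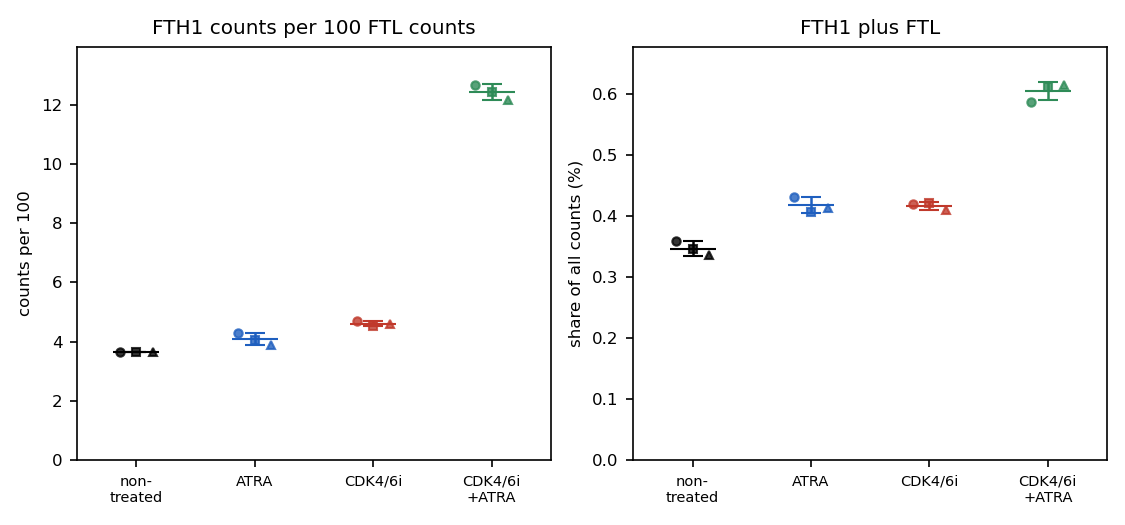
FTH1 counts per 100 FTL counts (left, vertical axis from 0) and the share of all counts held by FTH1 plus FTL in percent (right, vertical axis from 0) in the 4 groups, with points for single libraries and bars for the mean ± SD of 3 libraries. FTH1 counts per 100 FTL counts are 3.65 in non-treated cells and 12.4 with both drugs.

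The absolute ratio should not be read as a ratio of transcripts, because ferritin has many processed pseudogenes and the handling of reads that fit several places is not given in the sources used here. Of the 64-base windows in the FTH1 exons, 38.8% (442 of 1140) occurred again elsewhere on the primary chromosomes of hg38, against 16.1% of the FTL windows and 0 of the TFRC and HMOX1 windows. For 128-base windows the share was 8.83% for FTH1 and 0 for FTL. The 25 listed FTH1 pseudogenes, of which 15 had counts, summed to 107, 117 and 129 counts in non-treated cells and 428, 406 and 438 with both drugs, equal to 4.55% to 6.46% of the FTH1 counts over all 12 libraries. BEST1 overlaps FTH1 on the opposite strand, and its counts were 2, 4 and 2 in non-treated cells and 55, 62 and 52 with both drugs. Since the use of strand in counting is not given either, reads of such partners cannot be told apart.

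NCOA4, the receptor that delivers ferritin to lysosomes, went in opposite directions with the 2 drugs. It spans chr10:46005088-46030623 on the minus strand with 14 exons. Its level was 797.5, 816.2 and 798.5 CPM in non-treated cells, 535.1, 536.4 and 537.8 CPM under ATRA, 1135, 1108 and 1131 CPM with CDK4/6i and 474.4, 506.9 and 511.6 CPM with both drugs. No library of any group overlapped another group. The log2 change was -0.58 with ATRA (SE 0.0388, adjusted p = 1.1e-18), 0.48 with CDK4/6i (SE 0.0383, adjusted p = 1.5e-15) and -0.69 with both drugs (SE 0.0393, adjusted p = 1.2e-21), which is 1.62-fold lower. The interaction was -0.59 (SE 0.0549, adjusted p = 3.9e-13), so that the rise seen with CDK4/6i alone was not seen when ATRA was present. Against ATRA alone the log2 change with both drugs was -0.11 (adjusted p = 0.0135), a call that was lost without CDK4/6i+ATRA replicate 1 (-0.08, adjusted p = 0.0737). Under library size alone that change was -0.41 and the interaction -0.91.

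HMOX1, the inducible heme oxygenase, was the least abundant of the 7 genes per kilobase in non-treated cells, and it rose with either drug and with both. It spans chr22:35381096-35394207 on the plus strand with 5 exons. Its counts were 26, 17 and 19 in the non-treated libraries, 78, 85 and 66 under ATRA, 119, 61 and 77 with CDK4/6i and 255, 232 and 228 with both drugs. In CPM the group means were 1.23 ± 0.286 (SD, n = 3), 4.47 ± 0.717, 4.80 ± 1.25 and 20.96 ± 2.28 in the same order. The ATRA and CDK4/6i libraries overlapped, and all of them lay above the non-treated and below the CDK4/6i+ATRA libraries. The log2 change was 1.85 with ATRA (SE 0.229, adjusted p = 7.1e-10), 1.97 with CDK4/6i (SE 0.224, adjusted p = 1.3e-10) and 4.08 with both drugs (SE 0.186, adjusted p = 1.6e-25), a 16.9-fold rise. The rise with both drugs did not depart detectably from the sum of the log2 changes with each drug. The interaction was 0.26 with a 95% interval of -0.34 to 0.86 (adjusted p = 0.494), between 0.0477 and 0.50 with single libraries left out, and -0.06 under library size alone.

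With both drugs the iron regulatory protein genes moved the least of the 7. IREB2, which encodes the protein that is destroyed when iron is plentiful, spans chr15:78437431-78501453 on the plus strand with 23 exons. Its level was 190.8, 193.5 and 189.7 CPM in non-treated cells, 193.9, 197.3 and 206.3 CPM under ATRA, 199.4, 206.0 and 201.7 CPM with CDK4/6i and 213.3, 213.6 and 208.4 CPM with both drugs. Neighboring groups lay within a few percent of each other, and the ATRA and CDK4/6i libraries overlapped. The log2 change was 0.06 with ATRA (95% interval -0.02 to 0.13, adjusted p = 0.157) and 0.08 with CDK4/6i (95% interval 0.0072 to 0.15, adjusted p = 0.0565), and neither was called. Under 5 of 20 alternatives the change with ATRA was called higher (0.0850 to 0.11, adjusted p = 0.0059 to 0.0306), and under 6 of 20 the change with CDK4/6i was (0.0790 to 0.0935, adjusted p = 0.0288 to 0.0478), the latter also without CDK4/6i+ATRA replicate 1. With both drugs it was 0.15 (SE 0.0377, adjusted p = 4.8e-04), a change that turned to -0.12 under library size alone (adjusted p = 0.0045), so that no direction can be given for IREB2 with both drugs. Its interaction was 0.0069, with a 95% interval of -0.10 to 0.11, and -0.31 under library size alone (adjusted p = 3.7e-06).

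ACO1 encodes cytosolic aconitase, which becomes an iron regulatory protein when it loses its iron-sulfur cluster. It spans chr9:32384643-32454769 on the plus strand with 23 exons. Its level was 17.2, 18.6 and 16.1 CPM in non-treated cells, 13.2, 12.8 and 12.9 CPM under ATRA, 20.5, 21.6 and 20.2 CPM with CDK4/6i and 12.6, 15.6 and 14.1 CPM with both drugs. CDK4/6i gave the highest libraries, and the ATRA and CDK4/6i+ATRA libraries overlapped below the non-treated ones. The log2 change was -0.41 with ATRA (SE 0.0926, adjusted p = 1.2e-04). It was 0.27 with CDK4/6i (SE 0.0863, adjusted p = 0.00711), a call that was lost without non-treated replicate 3 (0.22, adjusted p = 0.0548). With both drugs it was -0.29 (SE 0.0983, adjusted p = 0.00644), a call that was lost without CDK4/6i+ATRA replicate 1 (-0.22, adjusted p = 0.0611) and that reached -0.56 under library size alone. The interaction was -0.15 (95% interval -0.42 to 0.12, adjusted p = 0.379), between -0.23 and -0.07 with single libraries left out, and -0.47 under library size alone (adjusted p = 0.00275).

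**Figure D4:**
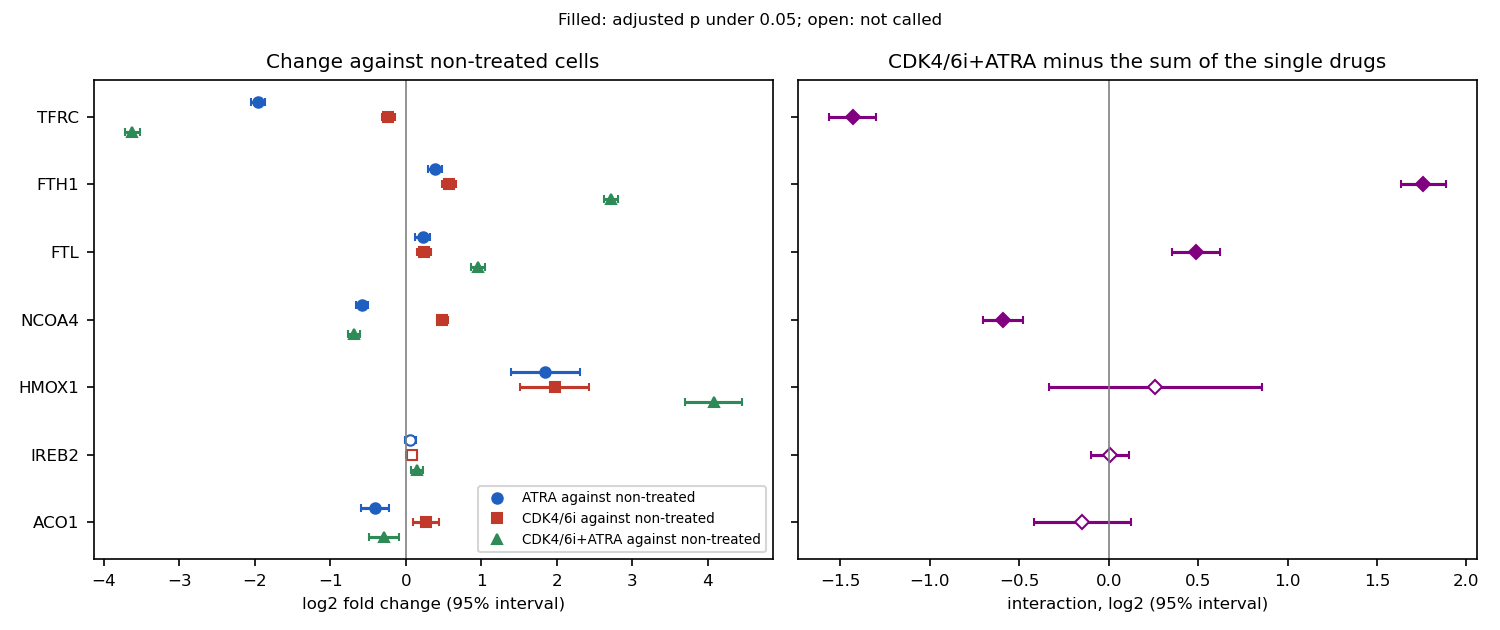
Left, log2 fold change of the 7 genes (vertical axis) with ATRA, CDK4/6i and both drugs against non-treated cells; right, the interaction on the log2 scale. Points are estimates from edgeR's fit, bars are 95% intervals, and filled points passed an adjusted p of 0.05. The interaction is below 0 for TFRC (-1.43) and NCOA4 (-0.59), above 0 for FTH1 (1.76) and FTL (0.49), and its interval includes 0 for HMOX1, IREB2 and ACO1.

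These counts of calls must be read against a data set in which most genes moved. With ATRA, 6 of the 7 genes were called (3 higher, 3 lower), and 67.6% of all genes tested were. With CDK4/6i, 6 were called (5 higher, 1 lower), against 56.2% of all genes. With both drugs all 7 were called (4 higher, 3 lower), against 81.7% of all genes, of which 41% of all genes tested were higher and 40.7% lower. Under library size alone the split of the 7 was 3 higher and 4 lower, because IREB2 turned, and without a filter the IREB2 call was lost. Against CDK4/6i, CDK4/6i+ATRA changed 6 (78.6% of all genes), and against ATRA it also changed 6 (69.8% of all genes). The last 6 include IREB2 at a log2 change of 0.09 (adjusted p = 0.0347), a call that was lost or turned under 14 of 20 alternatives, 9 of them with a single library left out. Without CDK4/6i+ATRA replicate 1, 4 of the 7 were called against ATRA. The interaction was called for 4 of the 7 (2 higher, 2 lower) and for 51.4% of all genes, or for 6 (2 higher, 4 lower) under library size alone. The median log2 change of the 7 genes with both drugs was 0.15, compared with 0.02 over all genes, and the median interaction was 0.0069 compared with -0.02. Both medians are the values of IREB2, and under library size alone they were -0.12 and -0.31. The comparisons with non-treated cells share the same 3 non-treated libraries and are not independent of each other.

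Per kilobase of exon, FTL led in every group, at 3709 CPM per kilobase in non-treated cells and 7178 with both drugs. TFRC was next in non-treated cells at 342.0 CPM per kilobase, and with both drugs it stood at 27.7, below FTH1 at 644.7 and NCOA4 at 113.8. HMOX1 passed ACO1, from 0.793 against 2.28 CPM per kilobase in non-treated cells to 13.5 against 1.86 with both drugs. The value of FTH1 carries the limit on pseudogenes given above.

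The gene whose profile lay closest to each of the 7 was found as the smallest root mean square distance between centered log2(CPM + 1) values over the 12 libraries, among 9299 genes. For TFRC it was GPD1L at a distance of 0.129, against a spread of TFRC itself of 1.46, and the next was GCSH at 0.148. For FTH1 these were PLAUR (0.108) and IL2RG (0.110), for FTL they were BRK1 (0.0462) and MLF2 (0.0475), and for HMOX1 they were IDS (0.173) and TRIB2 (0.197). NCOA4 lay closest to MFSD1 (0.0401) and APRT (0.0494), ACO1 to NDUFB9 (0.0620) and RFX5 (0.0708), and IREB2 to MED17 (0.0328) and SNX4 (0.0411), where the spread of IREB2 itself was only 0.0572. Within the 7, NCOA4 and ACO1 were the closest pair at 0.245 and HMOX1 and TFRC the farthest at 2.57. FTH1 and HMOX1 lay 0.385 apart.

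The wider pathway was read from 7 lists of 103 other genes, of which 80 were tested. With both drugs against non-treated cells 27 of the 80 were higher and 44 lower, and their median log2 change was -0.27 compared with 0.02 over all genes. Each count of these lists in the main fit is to be read against the 41% of all genes tested that were higher and the 40.7% that were lower in this comparison. These shares do not hold for the counts given under library size alone, where 40.5% of the called genes were higher, or with at least 10 counts in every library. Of the 17 iron uptake genes 8 were tested, with 3 higher and 5 lower, and 0 were higher among genes with at least 10 counts in every library. STEAP3, the endosomal reductase that acts after the transferrin receptor, was at 34.7 ± 2.41 CPM (SD, n = 3) in non-treated cells, 6.58 ± 1.06 under ATRA, 39.6 ± 1.64 with CDK4/6i and 0.868 ± 0.458 with both drugs, where its libraries held 11, 4 and 15 counts. Its log2 change with both drugs was -5.30 (adjusted p = 4.4e-32) and its interaction -3.08, with the same sign as that of TFRC. The 3 uptake genes that were higher, STEAP4, SLC11A1 and LRP1, were chosen for mention after their values were seen, and none had more than 6 counts in any non-treated library. Of the 8 genes of iron export and systemic control only SLC40A1, the iron exporter ferroportin, was tested, and it fell from 11.2 to 1.98 CPM (log2 change -2.48, adjusted p = 9.2e-18).

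Among 10 genes of iron chaperones, storage and the control of iron regulatory proteins, 8 were tested, 1 was higher and 4 were lower, or 7 lower under library size alone. The gene that rose was FBXL5, the ubiquitin ligase subunit that marks IREB2 protein for destruction when iron is plentiful. Its level was 43.6 ± 1.37 CPM (SD, n = 3) in non-treated cells, 115.3 ± 5.23 under ATRA, 64.2 ± 4.75 with CDK4/6i and 283.0 ± 3.35 with both drugs (log2 change 2.697, adjusted p = 4.7e-43), with an interaction of 0.74, or 0.42 under library size alone. CYBRD1, a ferric reductase, fell from 37.9 to 9.37 CPM (-2.01, adjusted p = 1.5e-26). It was placed in this list although the reductase STEAP3 was placed under uptake, and the counts of lower genes in both lists depend on that choice. Of 32 genes of mitochondrial iron and iron-sulfur clusters, all tested, 7 were higher, or 2 under library size alone, and 22 lower, with a median log2 change of -0.80. ABCB10, a mitochondrial transporter needed for heme synthesis, fell from 353.7 CPM in non-treated cells to 68.8 under ATRA and 20.6 with both drugs (-4.10, adjusted p = 3.3e-49), and HSCB, a co-chaperone of cluster assembly, rose from 5.20 to 11.8 CPM (1.18, adjusted p = 2.1e-09).

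Of 12 heme synthesis genes 11 were tested, with 1 higher and 8 lower. The gene that rose was ALAS1, the rate-limiting enzyme of heme synthesis outside red cells, from 164.8 to 505.9 CPM (log2 change 1.62, adjusted p = 1.2e-37). Of 13 genes of heme breakdown and transport 9 were tested, with 6 higher and 3 lower, and 3 were higher among genes with at least 10 counts in every library. HMOX2, the constitutive heme oxygenase, was not tested, had 0 to 3 counts per library and is also listed on an alternate contig. POR, the reductase that gives electrons to heme oxygenase, rose from 35.8 to 298.1 CPM (3.06, adjusted p = 4.6e-46), and HEBP1, a heme-binding protein, fell from 15.2 to 4.63 CPM (-1.70, adjusted p = 8.1e-16). BLVRA and BLVRB, the biliverdin reductases that act after heme oxygenase, were both higher, at log2 changes of 1.29 (adjusted p = 0.0026) and 0.89 (adjusted p = 0.0014). Both rest on few counts and lay below the mean of 5 CPM asked of other named genes. BLVRA held 12, 7 and 12 counts in the non-treated libraries and 16, 17 and 19 with both drugs. BLVRB held 33, 24 and 31 against 36, 46 and 29, and its log2 change with CDK4/6i alone was 0.84. HMOX2, BLVRA and BLVRB were chosen for mention after their values were seen.

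Of 11 regulators of HMOX1 and ferritin transcription, all tested, 9 were higher and 1 lower, or 2 lower under library size alone, with a median log2 change of 1.22 that is the same with EPAS1 at its lower bound. NFE2L2, the antioxidant activator NRF2, was at 53.7 ± 2.08 CPM (SD, n = 3) in non-treated cells, 60.1 ± 1.98 under ATRA, 47.8 ± 2.86 with CDK4/6i and 110.5 ± 3.65 with both drugs (log2 change 1.04, adjusted p = 4.3e-24), with an interaction of 1.05 (adjusted p = 3.8e-17). BACH1, the heme-sensing repressor of HMOX1 and the ferritin genes, was at 45.3 ± 1.52, 67.7 ± 2.48, 50.8 ± 2.31 and 263.3 ± 8.13 CPM in the same order (2.54, adjusted p = 1.5e-42), with an interaction of 1.79 (adjusted p = 2.5e-27). BACH1 transcripts and those of its targets FTH1 and HMOX1 thus rose in the same libraries. EPAS1, the hypoxia factor HIF-2 alpha, had 0 counts in the 3 non-treated libraries, 576, 519 and 554 counts with ATRA and 698, 705 and 766 with both drugs, at least 354-fold higher with both drugs than a floor of 3 counts per library. MYC, an activator of TFRC and a repressor of FTH1 transcription, was the gene that fell, from 1292 ± 12.2 CPM (SD, n = 3) in non-treated cells to 150.5 ± 8.10 under ATRA, 1183 ± 14.97 with CDK4/6i and 84.4 ± 7.19 with both drugs (-3.94, adjusted p = 3.7e-49). The part of MYC or of any other regulator in the changes of the 7 genes was not tested.

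**Figure D5:**
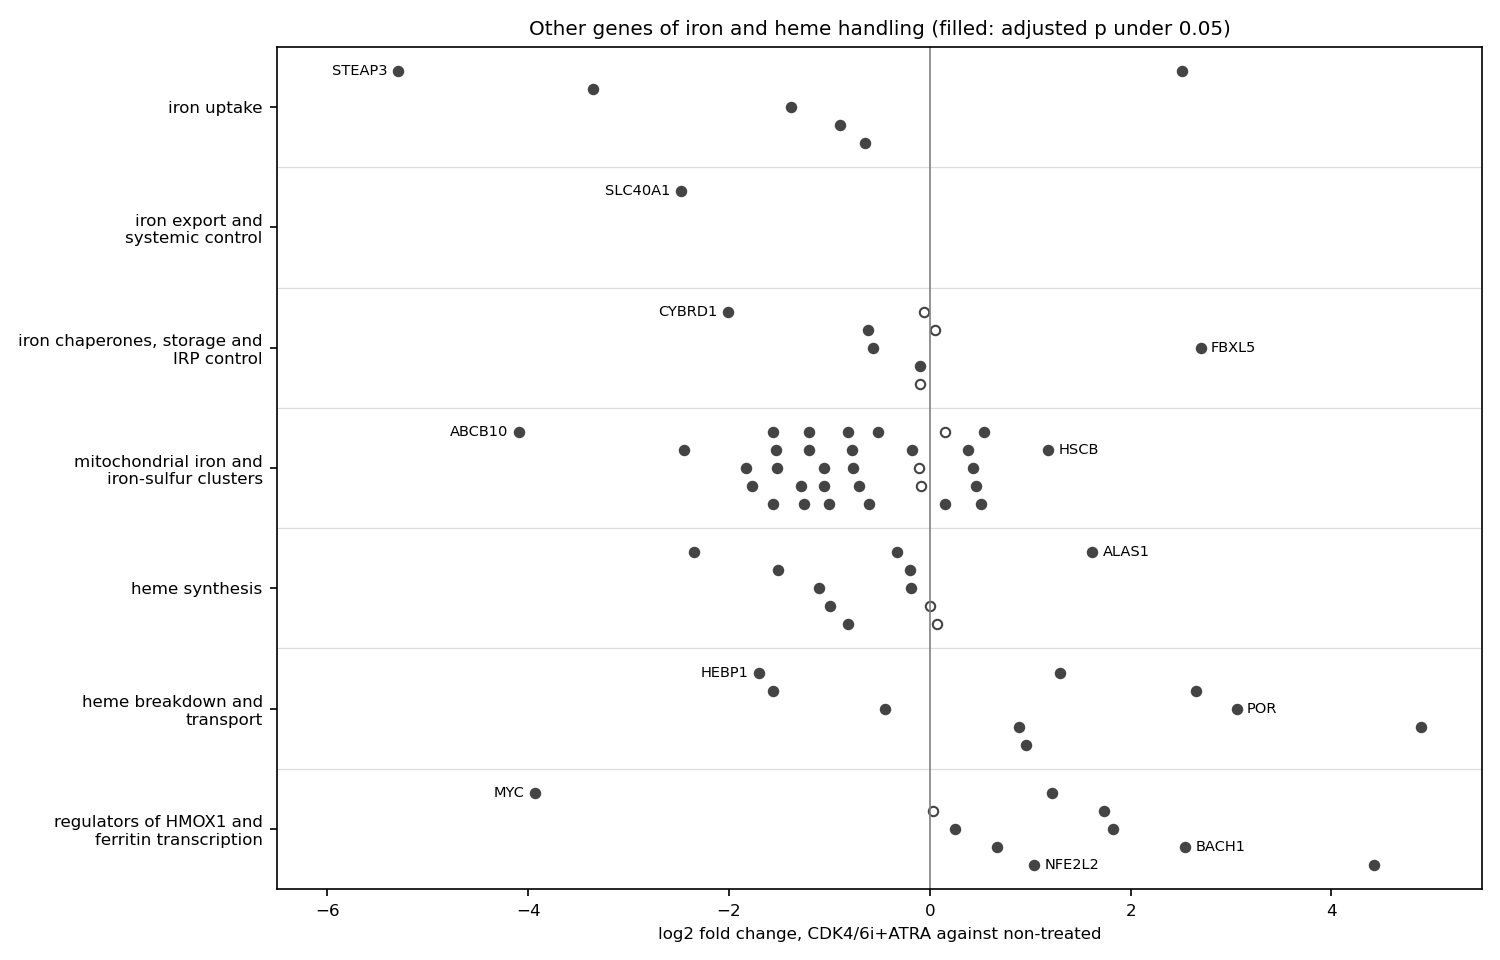
Log2 fold change between CDK4/6i+ATRA-treated and non-treated cells (horizontal axis) of 77 tested genes in the 7 lists (vertical axis), with filled points for an adjusted p under 0.05. The vertical offset within a list has no meaning, and STEAP4, LRP1 and EPAS1, with at most 3 counts in each non-treated library, are left out. STEAP3 (-5.30), ABCB10 (-4.10) and MYC (-3.94) lie farthest to the left among the genes named.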

How the data were processed

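RNA was prepared with a column kit and a directional library kit and sequenced on a NovaSeq instrument. Per the labels, reads were trimmed with Trimmomatic 0.33 and aligned with STAR 2.7.11a to hg38, and the authors used the NCBI RefSeq annotation. The authors deposited raw counts, whole numbers per gene without normalization, in a table with the layout of featureCounts, whereas the paper names RSEM. How multi-mapped reads and strand were handled is not given in the sources used here. Columns were matched to groups by their labels. The ChIP-Seq data of the study were not used here.

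The counts were filtered with filterByExpr, scaled by TMM and tested in edgeR 4.0.16 (R 4.3.3) by quasi-likelihood F tests, with a mean for each of the 4 groups and 8 residual degrees of freedom, with adjustment over all 13318 genes. The common biological coefficient of variation was 3.70%. Libraries of a group differed by more than sampling noise (chi-square per degree of freedom 1.82 to 6.26) and each counted as 1 replicate. The labels call the replicates biological without saying how they were separated. The paper attributes the enrichment scores from its RNA-Seq to 3 independent experiments. The p-values measure only the spread between these libraries, which the test estimates in part from all genes together. That spread may still be technical. The script was tested on simulated counts. The 7 genes and all lists were chosen with earlier results of these data known. The rule for other named genes took, per list, the largest rise and fall with both drugs among called genes with a mean of at least 5 CPM and no overlap of these groups, and the 2 highest and 2 lowest interactions over the lists. Some genes that the rule or the lists cover are not reported here. Alternatives were scaling by library size alone or by the size factors of DESeq2, omitting the filter or asking for 10 counts in every library, a replicate block, only the groups compared, DESeq2 1.42.0, pseudogene counts added to FTH1 and FTL, and leaving out each library. Per-kilobase levels used the gene lengths of the table, and element sequences were read from hg38. Figures were drawn with matplotlib 3.10.9.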

Additional observations from a re-analysis of the deposited data

Results flagged for a closer look

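For 4 of the 7 genes the effect of 1 drug differed with and without the other, by the interaction term of edgeR's quasi-likelihood test, which called 51.4% of all genes tested. TFRC, which was 12.3-fold lower with both drugs than in non-treated cells, lay below the sum of the single-drug log2 changes by an interaction of -1.43 (adjusted p = 4.9e-24). FTH1 was higher than that sum, with an interaction of 1.76 (adjusted p = 1.8e-28). FTL was also higher, with an interaction of 0.49 (adjusted p = 1.5e-08), or 0.17 under library size alone. NCOA4 was lower, with an interaction of -0.59 (adjusted p = 3.9e-13), or -0.91 under library size alone. In all 4 genes, which were picked by this call, the 3 CDK4/6i+ATRA libraries lay outside the range of the other 9. The share of all genes tested with such a separation was not counted, so it adds no support.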

How the results depend on the processing

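TFRC, FTH1 and FTL kept direction and call in all 6 comparisons under every alternative run, as did HMOX1 except for its interaction under library size alone. The 5 differences of the FTH1 to FTL ratio kept their direction. Depth limits HMOX1 most, at 17 to 26 counts in non-treated libraries. Multi-mapped reads limit FTH1, and scaling limits IREB2 and ACO1. Scaling also limits the size of changes in FTL and NCOA4. Under library size alone the FTL interaction went from 0.49 to 0.17, and NCOA4 with both drugs against ATRA from -0.11 to -0.41.

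IREB2 changed call or direction most often, and the cause was not tested. Each value given here for ATRA or CDK4/6i alone is a call that it gained. With DESeq2's size factors its log2 change was 0.0907 with ATRA, 0.0881 with CDK4/6i, 0.0736 against ATRA and -0.0145 for the interaction, and DESeq2 in place of edgeR gave 0.0908, 0.0881, 0.0735 and -0.0146. Under library size alone it was 0.0993 with ATRA, 0.0935 with CDK4/6i, -0.12 with both drugs, -0.21 against CDK4/6i, -0.22 against ATRA and -0.31 for the interaction. With at least 10 counts in every library it was 0.0850 with ATRA, 0.0836 with CDK4/6i and 0.0953 for both drugs against CDK4/6i. Without a filter it was 0.0370 with both drugs, -0.0359 against CDK4/6i, -0.0061 against ATRA and -0.0790 for the interaction. With only the groups compared it was 0.11 with ATRA, 0.0790 with CDK4/6i and 0.0195 for both drugs against ATRA.

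Under library size alone ACO1 with both drugs against ATRA was -0.19 and its interaction -0.47, and the interaction of HMOX1 was -0.0559. Under that scaling the lists gave 7 lower genes for chaperones, storage and control, 2 higher for mitochondrial iron and 2 lower for regulators. With at least 10 counts in every library they gave 0 higher for uptake, 2 for chaperones, storage and control and 3 for heme breakdown, and without a filter 2 higher and 2 lower for export.

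Leaving out each library in turn moved IREB2 between 0.0612 and 0.11 against ATRA, between 0.0688 and 0.0881 with CDK4/6i and between -0.0202 and 0.0275 for the interaction. It moved ACO1 between 0.22 and 0.32 with CDK4/6i and between -0.37 and -0.22 with both drugs, and NCOA4 with both drugs against ATRA between -0.13 and -0.0759.

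Same-numbered libraries of different groups did not deviate together (18 correlations, -0.114 to 0.0702), so no pairing by number was detected. A shared effect that is small or limited to few genes would not show in these correlations. With the replicate number as a block all 42 log2 changes of the 7 genes kept their call and direction, for example -3.62 for TFRC and 2.72 for FTH1 with both drugs, and the 6 counts of called genes were equal with and without the block.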
